A study of Mus musculus with 20 samples.

Results

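The 9 genes described here are Fos, Fosb, Jun, Junb, Jund, Ier2, Per1, Dusp1 and Dusp2, which were chosen by name as members of the AP-1 transcription factor and of the immediate early response, out of 25246 genes in the tables. All 9 were present in every table, and their values were read in single thymic precursors of intraepithelial lymphocytes (IELPs), the thymocytes that seed the T cells of the gut epithelium. The cells were CD4-CD8-TCRb+ thymocytes sorted without NK1.1 according to the study's methods, although the series' own description writes NK1.1+. CEL-Seq2, a plate method that counts the 3′ ends of transcripts with molecular identifiers, was applied to 20 libraries of 96 sorted cells. Cells with at least 2000 transcripts, mitochondrial genes and spike-ins left out, were kept, which gave 1413 of 1920 cells and 12418 transcripts of the 9 genes.

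Every genotype is treated here as 1 mouse. The study writes both mouse and mice for these cells, and no mouse is identified per library. All 3 genotypes carried TBGR, a reporter in which cells that express the transcription factor T-bet (Tbx21) fluoresce. The TBGR mouse, labelled wild type, was 4 weeks old and gave 678 cells. The TBGR C-mycfl/fl mouse, a littermate control with C-myc alleles flanked by loxP but not deleted, was 2 weeks old and gave 470 cells. The TBGR C-mycD/DCd4 mouse was also 2 weeks old, had lost C-myc through a Cre driven by Cd4 in cells that have expressed it, and gave 265 cells. They are called TBGR, fl/fl and D/DCd4 from here on. Cells were sorted by CD122, the beta chain of the interleukin 2 and 15 receptors, and by the reporter into 4 populations. CD122- and CD122+ below are the sorts that lack T-bet (CD122-T-bet- and CD122+T-bet- in full), and the CD122+ cells with the reporter are named T-bet int and T-bet high. D/DCd4 gave only the sorts that lack T-bet. Each TBGR and D/DCd4 library held 1 population, so library and population cannot be told apart there, whereas each fl/fl library held 2 populations side by side. These were either CD122- with CD122+ cells or T-bet int with T-bet high cells. With each genotype treated as 1 mouse, no test of a condition was possible and no p-value is given. Intervals are exact 95% intervals that cover counting error only.

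Immediate early genes are transcribed within minutes of a stimulus because the factors that start them already sit in the cell and only need to be phosphorylated, so no new protein is required. Fos and Jun proteins pair through leucine zippers to form AP-1, which carries signals from receptors such as the T cell receptor into transcription, and thymocytes induce it when their receptor is engaged. Dusp1 and Dusp2 code for nuclear phosphatases that switch off the MAP kinases which induced them. The same genes can also be induced while tissue is cut, strained and sorted, so a level in sorted cells may carry both, and they were not told apart here.

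The 200 bases before the transcription start are shown for Fos, Per1, Dusp1 and Dusp2, because these 4 genes differed at least 2-fold between T-bet high and T-bet int cells of TBGR with no overlap of libraries. Of the other members with a start in the reference, Fosb lies on chromosome 7, Jun on chromosome 4, and Junb and Jund on chromosome 8. Sequences are from RefSeq for GRCm38.p6, 5′ to 3′ on the gene's strand, at chr12:85473690-85473889 on the plus strand for Fos, chr11:69098749-69098948 on the plus strand for the first of the 2 Per1 starts, chr17:26508473-26508672 on the minus strand for Dusp1 and chr2:127335959-127336158 on the plus strand for Dusp2. Capitals mark the letters of the cyclic AMP response element TGACGTCA and of its 5-base part TGACG, of the E-box CACGTG and of the TATA box TATAAA, read on both strands.
Fos: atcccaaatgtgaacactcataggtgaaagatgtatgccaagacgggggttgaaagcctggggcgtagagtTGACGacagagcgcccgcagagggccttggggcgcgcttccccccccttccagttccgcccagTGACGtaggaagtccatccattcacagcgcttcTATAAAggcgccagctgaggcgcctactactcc
Per1: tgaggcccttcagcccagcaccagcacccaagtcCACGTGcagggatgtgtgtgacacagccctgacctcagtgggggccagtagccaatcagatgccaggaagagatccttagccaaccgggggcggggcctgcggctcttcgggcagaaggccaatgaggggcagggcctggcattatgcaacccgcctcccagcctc
Dusp1: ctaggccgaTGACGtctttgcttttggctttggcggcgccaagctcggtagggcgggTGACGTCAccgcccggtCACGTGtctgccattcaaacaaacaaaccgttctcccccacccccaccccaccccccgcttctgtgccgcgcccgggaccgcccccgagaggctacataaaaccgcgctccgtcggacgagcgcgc
Dusp2: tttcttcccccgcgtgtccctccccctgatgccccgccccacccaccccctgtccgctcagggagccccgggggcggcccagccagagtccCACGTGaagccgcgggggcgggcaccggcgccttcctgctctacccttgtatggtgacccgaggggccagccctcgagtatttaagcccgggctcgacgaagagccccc

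Searched over the 250 bases before the start, 8 of the 9 genes had a window (none was given for Ier2). TGACG was found in Fos, Fosb, Junb, Per1 and Dusp1, and in 17.8% of all 32851 windows. The whole TGACGTCA, which contains TGACG, was found in Dusp1 with its first base 143 bases before the start, and in 1.55% of all windows. CACGTG, the E-box to which the circadian clock factors and Myc bind, was found in Per1, Dusp1 and Dusp2, and in 6.02% of all windows. Fos held TATAAA 33 bases before its start, as 12.4% of all windows did somewhere. The AP-1 motif TGANTCA was found in none of the 8 genes and in 6.75% of all windows. Jun and Jund held none of the 5 motifs in this window. Only exact matches to these motifs were searched, so variants of them were not counted.

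**Figure D1:**
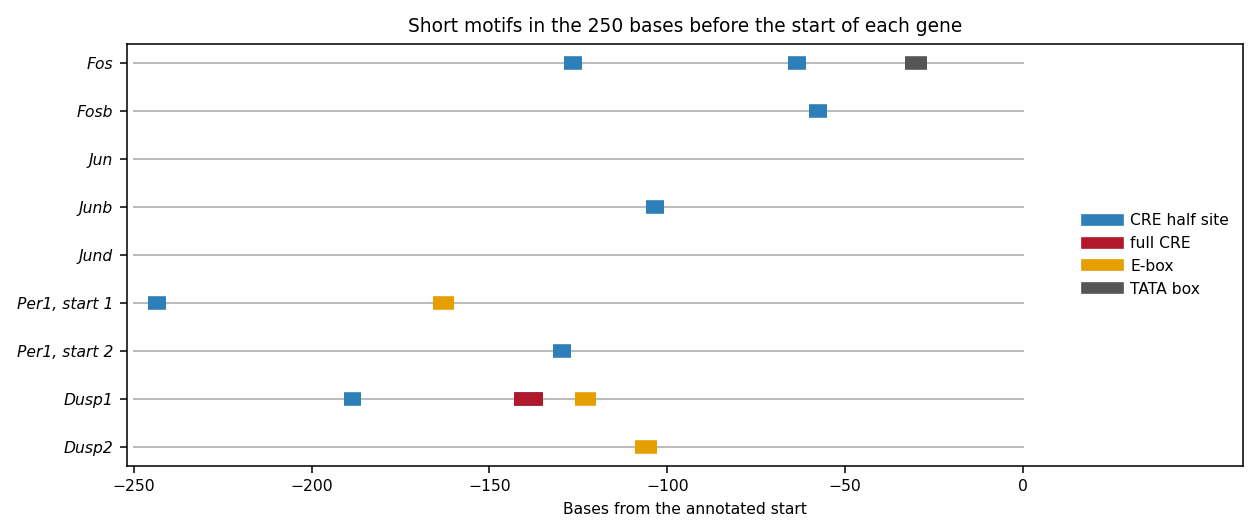
Positions of the searched motifs in the 250 bases before the transcription start; the horizontal axis is the distance from the start in bases and each row is 1 start site, with 2 rows for Per1. Fos has 2 TGACG matches, at 129 and 66 bases, Dusp1 is the gene with the whole TGACGTCA, and the rows of Jun and Jund are empty.

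Depth and identity of the cells were checked first. The 28 combinations of library and population held 94268 to 775264 transcripts and a median of 3298 to 7810 transcripts per cell. Il2rb, which codes for CD122, stood at 2.6 to 9.9 counts per 1e+06 transcripts (CPM) in the CD122- populations and at 222 to 515 CPM in the CD122+ ones, and Tbx21 was at 165 and 60.0 CPM in the T-bet high cells of TBGR and fl/fl against 0 to 1.3 CPM in CD122- cells. Some libraries stood apart. The second TBGR T-bet high library (replicate 6) passed 55 of 96 cells and had 4.17% of its transcripts in barcodes without a cell, and the CD122+ cells of fl/fl replicate 4 were 22, with the lowest median of all. Myc, the deleted gene, was read at 24.8 and 25.1 CPM in the CD122- and CD122+ cells of D/DCd4 against 42.0 and 99.0 CPM in fl/fl, with log2 ratios of -0.74 (-1.65 to 0.09) and -1.95 (-2.81 to -1.22), but the libraries of the 2 mice overlapped in both, and whether the counted 3′ end lies in the deleted part is not given in the sources used here. The libraries shared 2 sets of 96 barcodes, set apart by the index of each library, so a repeated barcode is not a repeated cell. Barcodes without a cell held 88 transcripts of the 9 genes, 0.704% of their total.

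Over all 1413 cells Dusp2 was the most abundant of the 9 at 357 CPM, rank 274 of all genes, and Fosb the least at 15.3 CPM, rank 7147. Since CEL-Seq2 counts transcript ends, these levels need no correction for gene length. Jund stood at 302 CPM, Junb at 249 CPM, Fos at 133 CPM and Ier2 at 106 CPM. Jun followed at 95 CPM, Dusp1 at 88.9 CPM and Per1 at 25.8 CPM. Fosb and Per1 therefore rested on 138 and 233 transcripts in all, and their levels are the least certain.

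The summed level of the 9 genes differed by population and by mouse. In TBGR it was 1426 CPM in CD122- cells, 1935 CPM in CD122+, 1428 CPM in T-bet int and 2822 CPM in T-bet high cells. The 2 libraries of T-bet high cells, at 2197 and 3131 CPM, lay above all 6 others of that mouse. With Dusp2 left out of the sum they were at 1354 and 1746 CPM, and the CD122+ libraries at 1456 and 1581 CPM lay between them. In fl/fl the same populations stood at 391, 1039, 849 and 985 CPM, and in D/DCd4 the 2 without T-bet at 605 and 1905 CPM. In all 3 mice the sum was higher in CD122+ than in CD122- cells, and the libraries of the pair overlapped in fl/fl only. Each fl/fl library with these cells held both populations, and within each the sum was higher in CD122+ cells. It went from 368 to 1060, from 544 to 1020, from 396 to 1268 and from 213 to 499 CPM.

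**Figure D2:**
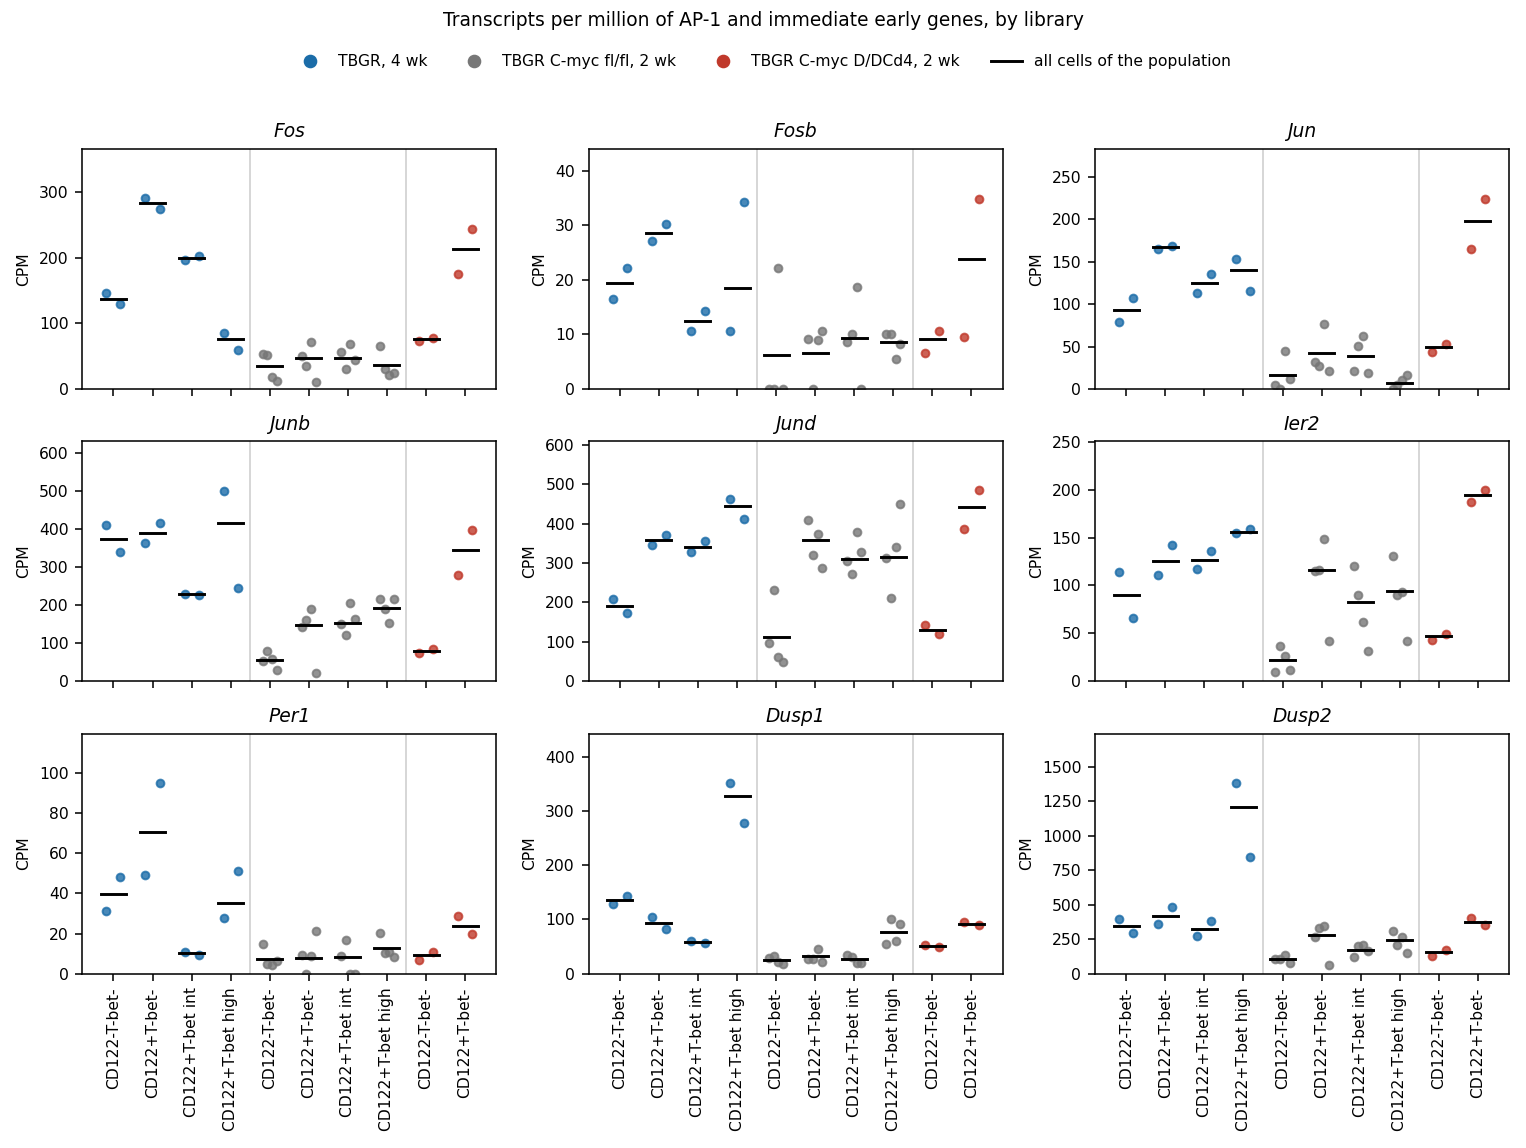
Level of each gene (CPM, vertical axis, 1 panel per gene with its own scale) by sorted population; each point is 1 library, coloured by mouse (TBGR blue, fl/fl grey, D/DCd4 red), and the black line is the level over all cells of that mouse and population. Dusp2 and Dusp1 are highest in the 2 TBGR T-bet high libraries, Fos in the TBGR CD122+ libraries, and Jun in the CD122+ libraries of D/DCd4 and TBGR.

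Fos, an AP-1 subunit that binds DNA only in a pair with a Jun protein, was highest in CD122+ cells of TBGR, whose libraries were at 290.2 and 274 CPM. The CD122- libraries of that mouse were at 147 and 129 CPM, those of T-bet int cells at 197 and 202 CPM and those of T-bet high cells at 84.9 and 60.0 CPM. Within TBGR the 4 populations were thus separate from each other, with T-bet high cells lowest. In D/DCd4 Fos was at 73.6 and 77.2 CPM in CD122- and at 175 and 244 CPM in CD122+ cells. The 16 values from the fl/fl libraries, 10.6 to 72.2 CPM, were all below those of D/DCd4, and the 4 fl/fl populations overlapped one another.

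Fosb, a second Fos protein, ran from 6.17 CPM in CD122- cells of fl/fl to 28.6 CPM in CD122+ cells of TBGR. No 2 neighbours in the order of the 10 groups were separate beyond their libraries. Of the 122 CD122+ cells of fl/fl, 4.10% held a Fosb transcript at full depth. The CD122+ libraries of TBGR were at 27.1 and 30.3 CPM.

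Jun, the founding partner of Fos in AP-1, was highest in CD122+ cells of D/DCd4, at 165 and 224 CPM in the 2 libraries. TBGR cells of that population were close, at 165 and 169 CPM, while the 4 fl/fl libraries of it lay at 21.2 to 76.7 CPM. CD122- cells had 78.6 and 107 CPM in TBGR, 43.5 and 53.6 CPM in D/DCd4 and 0 to 44.5 CPM in fl/fl. The lowest of the 10 groups was T-bet high of fl/fl with 5 transcripts in all (0, 5.01, 11.0 and 16.7 CPM), although the same population of TBGR was at 153 and 116 CPM.

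Junb, a Jun protein that also restrains Jun in some settings, was higher in every TBGR group than in every fl/fl group. The CD122- libraries of TBGR were at 411 and 338 CPM, and the 4 of fl/fl at 30.5 to 79.1 CPM. In CD122+ cells TBGR had 362 and 417 CPM, D/DCd4 had 279 and 396 CPM, and fl/fl had 21.2 to 189 CPM. The 2 TBGR T-bet high libraries disagreed, at 501 and 244 CPM.

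Jund, the Jun protein that is made without a stimulus in many cells, differed less than 2-fold between the 3 mice in CD122+ cells. Its CD122+ libraries were at 347 and 372 CPM in TBGR, 286 to 410 CPM in fl/fl and 387 and 485 CPM in D/DCd4. Those of CD122- cells were lower in each mouse, at 209 and 173 CPM, 48.8 to 233 CPM, and 144 and 120 CPM. T-bet high cells of TBGR were the highest group at 446 CPM.

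Ier2, an immediate early gene that codes for a small nuclear protein, was highest in CD122+ cells of D/DCd4 at 187 and 199 CPM and lowest in CD122- cells of fl/fl at 9.70 to 37.2 CPM. Between them most groups overlapped, and TBGR ran only from 89.8 CPM in CD122- to 156 CPM in T-bet high cells. The CD122+ cells of fl/fl, at 116 CPM, were close to those of TBGR at 125.9 CPM.

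Per1 codes for a repressor of the circadian clock that also responds at once to cyclic AMP and glucocorticoids. It was highest in CD122+ cells of TBGR at 49.0 and 95.1 CPM, fell to 10.6 and 9.49 CPM in T-bet int cells and stood at 27.6 and 51.4 CPM in T-bet high cells. All 16 fl/fl values lay at or below 21.2 CPM. In D/DCd4 the 2 populations were at 9.14 and 23.7 CPM over their libraries.

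Dusp1, a phosphatase of p38 and JNK as well as ERK, was highest in T-bet high cells of TBGR at 352 and 278 CPM. The next group was CD122- of the same mouse at 128 and 143 CPM, and the lowest of that mouse was T-bet int at 60.6 and 56.9 CPM. In fl/fl the T-bet high libraries were at 55.4 to 100.2 CPM, above all 12 other values of that mouse, which lay between 18.3 and 45.1 CPM.

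Dusp2, a phosphatase found mainly in activated lymphocytes, stood apart in T-bet high cells of TBGR at 1385 and 844 CPM. Every other group of the 3 mice lay below, with 273 to 483 CPM in the other TBGR libraries, 63.6 to 343 CPM in fl/fl and 130 to 400.2 CPM in D/DCd4. Its lowest group was CD122- of fl/fl at 109 CPM. After thinning, 83.7% of the T-bet high cells of TBGR (76.7% to 89.3%) and 38% of T-bet int cells had a transcript.

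For each pair of groups a gene was called higher or lower where 1 group held at least 20 transcripts, the level differed at least 2-fold and no library of one group overlapped the other. This rule describes the libraries and is not a test. In TBGR the step from CD122- to CD122+ cells was called for 1 of the 9 genes. Fos was 2.05-fold higher (log2 ratio 1.03, 0.75 to 1.33). Of 8207 genes tested 15.1% were called higher and 3.45% lower, and the median log2 ratio of all of them was 0.30. Jund (0.91, 0.67 to 1.16), Jun (0.84, 0.49 to 1.21) and Per1 (0.82, 0.29 to 1.40) had higher values in both CD122+ libraries but stayed under 2-fold. Junb did not differ beyond its interval (0.05, -0.14 to 0.25). Dusp1 was lower in both CD122+ libraries (-0.53, -0.88 to -0.18).

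The single call lay at the threshold. Relative to the median of all genes no member was called, and without the second CD122- library (replicate 4) Fos stood at 0.94 while Jun at 1.07 and Per1 at 1.15 passed. Markers of CD4+CD8+ double positive thymocytes moved with this comparison, at 717 CPM in CD122- and 114 CPM in CD122+ cells of TBGR, with Rag1 and Rag2 at 0 in the latter. With cells carrying 2 or more of these markers left out (58 of 174 and 21 of 186) the ratio of Fos was 0.80 and no member was called.

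From CD122+ to T-bet int cells of TBGR, 2 of the 9 genes were called and both fell, against 6.64% of all genes called lower and 3.32% called higher. Per1 fell by 2.77 on the log2 scale (-3.77 to -1.98), from 70.8 to 10.1 CPM. Fosb fell by 1.18 (-2.14 to -0.35), and by 0.95 without replicate 7, which left it under the threshold. Junb (-0.76), Dusp1 (-0.67), Fos (-0.50) and Jund (-0.07) gave negative ratios with less than 2-fold difference, Ier2 gave 0.00, and the median of the 9 was -0.50 beside -0.02 for all genes. Markers of other T cells moved with this step, with 4 of 5 gamma delta genes called lower (Trdc, Sox13, Blk and Cd163l1) and 3 of 3 regulatory T cell genes called lower (Foxp3, Il2ra and Ikzf4). The summed levels were 530 and 543 CPM for the gamma delta list and 146 and 36.4 CPM for the regulatory list, no gene of either was at 0, and their part in the result was not tested.

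On the last step, from T-bet int to T-bet high in TBGR, the genes moved in opposite directions. Dusp1 rose 5.55-fold (2.47, 2.10 to 2.87), Dusp2 rose 3.69-fold (1.88, 1.71 to 2.06) and Per1 rose 3.46-fold (1.79, 0.80 to 2.91). Fos fell 2.59-fold (-1.37, -1.83 to -0.95). These 4 of 8 genes tested stand beside 6.9% of all genes called higher and 12.8% called lower, with a median of all genes of -0.14. Junb reached 0.86 (0.63 to 1.10) with its 2 high libraries far apart, and Jun (0.18, -0.20 to 0.54) did not differ beyond its interval. Fosb had fewer than 20 transcripts in both groups and was not tested. Over the other settings and with each library left out, the ratio of Dusp1 ran from 2.24 to 2.97, that of Dusp2 from 1.37 to 2.14, that of Per1 from 1.11 to 2.36 and that of Fos from -2.03 to -1.22.

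The fl/fl mouse allowed the same steps within libraries, because 2 populations shared each one. From CD122- to CD122+ cells, Ier2 rose 5.12-fold (2.35, 1.64 to 3.21) and Jund rose 3.14-fold (1.65, 1.31 to 2.01), with the ratio above 0 within 4 of 4 libraries for both. The calls were 2 of 7 genes tested against 6.45% of all genes called higher and 0.996% lower, with a median of all genes of 0.54. Dusp2 (1.37, 1.01 to 1.75), Junb (1.36, 0.86 to 1.90) and Jun (1.36, 0.43 to 2.45) were over 2-fold higher with libraries that overlapped. Within libraries Jun was higher in 4 of 4 (0.76 to 3.64) and Junb and Dusp2 each in 3 of 4. Without replicate 4, the library with 22 CD122+ cells, 4 genes were called, Junb and Dusp2 being added. Double positive markers were at 367 CPM in CD122- and 40.9 CPM in CD122+ cells, with Rag1, Rag2 and Dntt at 0 in the latter, and the 2 calls were still made with marked cells left out.

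From CD122+ to T-bet int cells of fl/fl, 0 of 7 genes tested were called, beside 0.58% of all genes called higher and 0.453% lower. These populations lay in different libraries, so library and population cannot be told apart in this step. Dusp2 gave -0.72 (-1.03 to -0.41) and Ier2 gave -0.50 (-0.97 to -0.03), with libraries that overlapped. From T-bet int to T-bet high, 2 of 7 were called, against 1.55% of all genes called higher and 3% lower. Dusp1 rose 2.77-fold (1.47, 0.76 to 2.26) and was higher within 4 of 4 libraries. Jun fell 5.01-fold (-2.32, -4.15 to -1.07) and was lower within 4 of 4 libraries, on 5 and 33 transcripts. Without replicate 6 Jun held fewer than 20 transcripts in both groups, and Dusp1 alone was called. Dusp2 gave 0.49 (0.16 to 0.82) and Fos gave -0.33.

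In D/DCd4 the step from CD122- to CD122+ cells was called for 6 of 7 genes tested, all higher, where 14.8% of all genes were called higher and 8.57% lower and the median was 0.12. The 3 Jun genes and Ier2 led, with Junb 4.30-fold (2.10, 1.70 to 2.54), Ier2 4.08-fold (2.03, 1.51 to 2.62), Jun 3.95-fold (1.98, 1.47 to 2.55) and Jund 3.41-fold higher (1.77, 1.44 to 2.11). Fos rose 2.80-fold (1.49, 1.05 to 1.96) and Dusp2 rose 2.41-fold (1.27, 0.96 to 1.60). Dusp1 gave 0.85 (0.26 to 1.46), with both CD122+ libraries above both others. Each single library left out gave 6 calls again. Double positive markers stood at 756 and 128 CPM in the 2 populations, with Rag2 and Ptcra at 0 in the latter, and 5 genes were called without the marked cells. Fosb and Per1, with 17 and 7 transcripts each, were too few for a call.

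The study set D/DCd4 against its littermate control to ask what the loss of C-myc does to these precursors. Each genotype is treated as 1 mouse and lay in its own libraries, so genotype, mouse and library cannot be told apart in these comparisons. The library layouts also differed, with 48 wells per population in fl/fl and 96 in D/DCd4. In CD122+ cells, 4 of 7 genes tested were called higher in D/DCd4 and none lower, against 15.1% and 7.04% of all genes, whose median was 0.17. Jun was 4.63-fold (2.21, 1.67 to 2.83), Fos 4.45-fold (2.15, 1.64 to 2.73), Dusp1 2.87-fold (1.52, 0.85 to 2.28) and Junb 2.35-fold higher (1.23, 0.91 to 1.57). Ier2 (0.74, 0.34 to 1.14) and Dusp2 (0.40, 0.13 to 0.67) were above all fl/fl libraries by less than 2-fold. Jund gave 0.31 (0.07 to 0.55) with overlapping libraries. Leaving out each library gave 3 to 4 calls, the lower number without the second D/DCd4 library, when Junb stood at 0.93.

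B cell markers moved with this comparison, at 124 CPM in the CD122+ cells of D/DCd4 (19.1 and 207 CPM in its libraries, 6 of 6 markers present). They were at 22.4 CPM in those of fl/fl (9.02 to 36.9 CPM, so the libraries overlapped), where Cd79a was at 0. With the 14 of 137 D/DCd4 cells that carried such a marker left out, and those of fl/fl likewise, the same number of 4 genes was called, with Junb at 1.15 and Dusp1 at 1.40. Double positive markers stood at 128 and 40.9 CPM in these cells, and 4 genes were called without the marked cells. The gamma delta list was at 791 CPM in D/DCd4 (782 and 804 CPM) and 345 CPM in fl/fl (162 to 636 CPM), without overlap. Of its 5 genes tested 1 was called higher, Trdc, and the part of this list in the result was not tested. Of the heat shock and dissociation genes outside the members, 0 of 11 tested were called higher and 2 lower, with a median of -0.63. Hsp90ab1 was at 1125 CPM in D/DCd4 and 2486 CPM in fl/fl, and Hspe1 at 141 and 500.3 CPM.

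In CD122- cells the 2 genotypes differed less in these genes. D/DCd4 was called higher for 2 of 7 genes, Fos 2.17-fold (1.12, 0.46 to 1.84) and Ier2 2.09-fold (1.06, 0.23 to 1.99), against 14.8% of all genes called higher and 0.953% lower. The median of all genes was 0.49, and relative to it no member was called. Without fl/fl replicate 4 no member was called either, with Fos at 0.90 and Ier2 at 0.90. Jun gave 1.59 (0.69 to 2.66) with overlapping libraries, and Jund gave 0.19. Double positive markers moved with this comparison, at 756 CPM in D/DCd4 and 367 CPM in fl/fl with all 8 present in both, and 3 of 7 were called higher (Cd8a, Dntt and Arpp21). With the marked cells left out (42 of 128 and 24 of 120) 3 members were called. With B cell marked cells left out 4 were called. Of the gamma delta genes 2 of 5 tested were called higher (Trdc and Cd163l1). The list was at 891 CPM in D/DCd4 (793 and 1044 CPM) and 539 CPM in fl/fl (196 to 1086 CPM), and its part in the result was not tested.

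**Figure D3:**
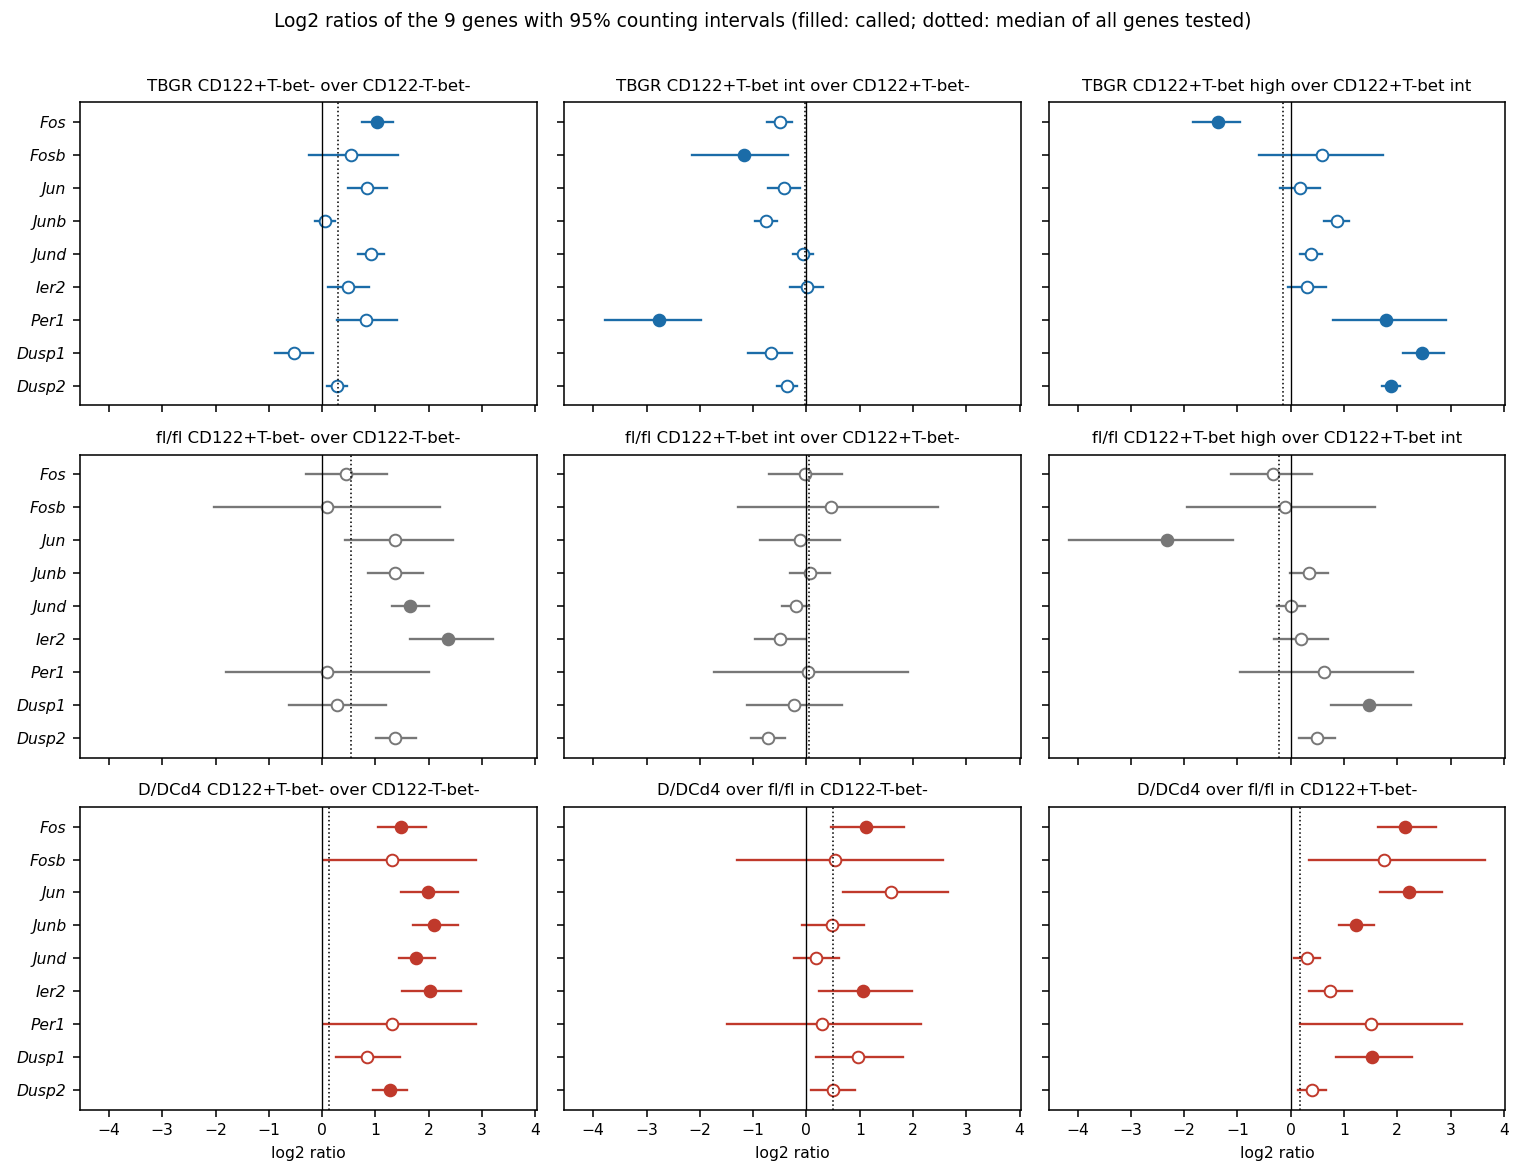
Log2 ratio of each gene (vertical axis) in the 9 comparisons, 1 panel each, with 95% counting intervals; filled points were called, open points were not, and the dotted line is the median of all genes tested. The D/DCd4 panel of CD122+ over CD122- cells has 6 filled points, and the TBGR panel of T-bet high over T-bet int has Dusp1, Dusp2 and Per1 above 0 and Fos below.

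The other immediate early genes, a list of 30 that includes the Nr4a orphan receptors, the Egr factors and Ier and Klf genes, were counted in the same way. For this and the following lists, the shares of all genes called in each comparison are those given above. In the CD122+ cells of D/DCd4 over those of fl/fl, 13 of 23 tested were called higher and none lower, with a median of 1.45 beside 0.17 for all genes. Nr4a3 stood at 61.4 and 7.9 CPM, Tnfaip3, a brake on NF-kB, at 226 and 35.6 CPM, and the antiproliferative gene Btg1 at 731 and 106 CPM. In CD122- cells, 5 of 19 were called higher, among them Tnfaip3 (108 and 21.0 CPM) and Cd69, an early activation marker (99.3 and 32.1 CPM). Of all genes 14.8% were called higher there, and the median of the list, 0.53, was close to that of all genes, 0.49.

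Across the populations of D/DCd4, 17 of 22 genes of that list were called higher in CD122+ than in CD122- cells, with a median of 1.55. Nr4a2 rose from 28.7 to 456 CPM and Klf2, a factor of thymic exit, from 43.1 to 311 CPM. In TBGR the same step had 7 of 26 called higher and 2 lower, beside 15.1% and 3.45% of all genes. The median of the list was 0.39 there and that of all genes 0.30. From CD122+ to T-bet int cells of TBGR, 0 of 26 were called higher and 8 lower, Nr4a1, the T cell receptor target also named Nur77, going from 325 to 115 CPM. From T-bet int to T-bet high 5 of 23 rose and 5 fell, with Nr4a2 at 175 and then 9.9 CPM, Egr2 at 24.8 and 1.4 CPM, and the mRNA decay factor Zfp36l2 at 326 and 1044 CPM. In fl/fl the 3 steps had 2 of 20, 0 of 20 and 2 of 19 called higher, and 0, 0 and 1 called lower.

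The other phosphatases and feedback inhibitors of the MAP kinase pathway, 14 genes, were counted beside Dusp1 and Dusp2. From T-bet int to T-bet high of TBGR 1 of 5 tested was called higher, Dusp7, at 24.0 and 63.8 CPM. One step earlier 4 of 10 were called lower, among them Dusp5 from 91.9 to 42.6 CPM and Spry1 from 32.0 to 6.2 CPM. Spry2, a receptor-induced inhibitor of the pathway, rose from CD122- to CD122+ cells in all 3 mice, from 2.0 to 52.4 CPM in TBGR, from 1.2 to 51.5 CPM in fl/fl and from 0 to 64.2 CPM in D/DCd4. In D/DCd4 over fl/fl, Dusp5 was called higher in both populations (107 and 44.4 CPM in CD122-, 183 and 37.0 CPM in CD122+), and Dusp10 in CD122+ cells (71.2 and 10.6 CPM).

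Of the other bZIP genes, which could pair with the AP-1 subunits, few were detected. Fosl2, a further Fos protein, was called higher in CD122+ than in CD122- cells of TBGR (22.5 and 4.1 CPM) and of D/DCd4 (30.7 and 3.9 CPM), and lower in T-bet int cells of TBGR at 7.7 CPM. It was also higher in CD122+ cells of D/DCd4 than of fl/fl, where it was at 7.9 CPM. Among the kinases and factors upstream of immediate early genes, 4 of 16 were called higher in that comparison, beside 15.1% of all genes. Among them were Elk3, a partner of serum response factor (1.34), and Rasgrp1, which links the T cell receptor to Ras (1.27). The median of this list was 0.64 and that of all genes 0.17. Of the 9 comparisons of populations and of D/DCd4 with fl/fl, none called more than 1 of 13 to 17 upstream genes lower.

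Clock genes and glucocorticoid response genes were counted because Per1 is a clock gene and both Per1 and Dusp1 are known glucocorticoid targets. Of the clock genes 2 of 6 tested were higher in T-bet high than in T-bet int cells of TBGR, Bhlhe40 (102 and 10.1 CPM) and Nr1d2 (66.7 and 13.2 CPM), and none was lower. Of the glucocorticoid response genes 4 of 8 were higher in that step and none lower, among them the receptor Nr3c1 (346 and 163 CPM) and Txnip (369 and 91.3 CPM). In the same step of fl/fl 1 of 6 was higher, Txnip, and 1 lower, Ddit4. In the CD122+ cells of D/DCd4 over fl/fl, 3 of 7 of that list were higher and 1 lower, with Tsc22d3, which codes for the glucocorticoid-induced leucine zipper protein, at 2.69 on the log2 scale.

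Comparisons of TBGR with fl/fl were added after the values had been seen, and in them age, the floxed allele and the library run cannot be told apart. They share the fl/fl libraries with the comparisons of D/DCd4 above. TBGR was called higher for 7 of 8 genes tested in CD122-, 6 of 9 in CD122+, 3 of 7 in T-bet int and 5 of 8 in T-bet high cells, and lower for none. Of all genes 33%, 22.5%, 18% and 24.2% were called higher and 2.98%, 1.86%, 2.07% and 4.6% lower. The median of all genes was 0.73, 0.47, 0.42 and 0.52, so that a broad shift lies under the members' ratios, and relative to the median the counts were 6, 5, 2 and 3.

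Jun and Dusp1 were called in each of the 4 populations, although relative to the median of all genes Dusp1 in T-bet int cells stood at 0.68 and was not. Jun ran from 1.67 in T-bet int to 4.17 (3.03 to 5.95) in T-bet high cells, and Dusp1 from 1.10 in T-bet int to 2.36 in CD122- cells. Per1 was 8.29-fold higher in CD122+ cells (3.05) and Fos 5.87-fold (2.55). Dusp2 was 4.98-fold higher in T-bet high cells (2.32) and gave 0.57 in CD122+ cells. Jund was called in none of the 4, with 0.00 (-0.21 to 0.22) in CD122+ cells and 0.74 (0.38 to 1.12) in CD122- cells. Without TBGR replicate 5 the calls in T-bet high cells numbered 3.

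In single cells the 9 genes were sparse. No sorted population should lack them, so the only background is the 88 transcripts in 1920 barcodes without a cell. Thinned to 2000 transcripts, the median cell of TBGR held 2.5, 3, 3 and 6 transcripts of the 9 genes together in the 4 populations from CD122- to T-bet high. The medians were 0.5, 2, 1 and 2 in fl/fl, and 1 and 4 in D/DCd4. All 147 T-bet high cells of TBGR held at least 1 such transcript, while 60 of the 120 CD122- cells of fl/fl and 55 of the 128 of D/DCd4 held none. At least 3 different members were seen in 70.1% of T-bet high cells of TBGR, in 50.4% of CD122+ cells of D/DCd4, in 19.7% of those of fl/fl and in 4.17% of CD122- cells of fl/fl. The fullest cell held 23 transcripts and was a CD122- cell of TBGR.

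**Figure D4:**
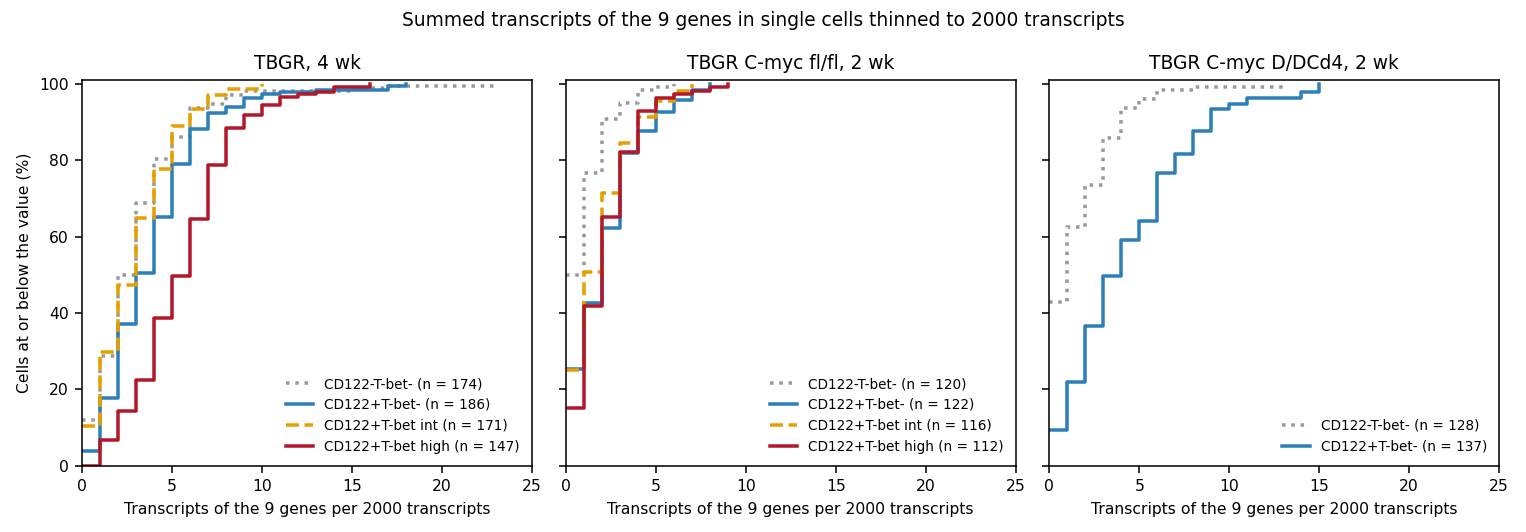
Cumulative percent of cells (vertical axis) against the summed transcripts of the 9 genes in each cell thinned to 2000 transcripts (horizontal axis), 1 panel per mouse and 1 line per sorted population. The T-bet high line of TBGR starts at 0% and lies farthest right with a median of 6 transcripts, and the CD122- line of fl/fl starts at 50% of cells with none.

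Shares of cells were read for the genes with the widest differences. Fos was detected in 33.9% of CD122+ cells of TBGR, 29.2% of those of D/DCd4 and 9.02% of those of fl/fl at the thinned depth. Jun was detected in 30.7% of the D/DCd4 and 9.02% of the fl/fl cells of that population. Dusp1 was detected in 44.9% of T-bet high and 7.6% of T-bet int cells of TBGR. Per1 was in 4.08% of T-bet high cells of TBGR and 4.46% of those of fl/fl at the thinned depth, on 6 and 5 cells. At full depth its shares were 15.0% and 7.14%, beside levels of 35.5 and 12.9 CPM. The variance of the summed transcripts was 1.39 to 2.78 times their mean over the 10 groups, where counting error alone gives a ratio of 1. Single genes with the widest spread were Dusp2 in CD122- cells, at 3.75 in D/DCd4 and 2.55 in TBGR, and Fos in CD122+ cells of TBGR at 2.21. Ier2 stayed at 0.91 to 1.35 in all 10 groups.

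Co-expression within cells was weak in all 36 pairs of members. Pearson's r over the cells of 1 group ran from -0.22 to 0.38 in 352 values, and weak correlations in counts this sparse are a description only. In thinned cells the pair with the highest median r was Junb with Dusp2, at 0.13 and above 0 in 9 of 10 groups, with 252 cells that held both where their separate shares give 224. This order depended on thinning. At full depth the highest median r was that of Fos with Fosb, at 0.20 beside -0.02 thinned. Fos with Junb followed at 0.19 beside 0.09 thinned, and Junb with Dusp2 stood at 0.16. Junb with Ier2 had a median of 0.11, and 127 cells held both against 103. Fos and Fosb were found together in 18 cells against 9.13, with r of 0.38 in CD122- cells of TBGR, where it rests on 4 cells of 174. Fos with Dusp2 in T-bet int cells of TBGR was the lowest, at -0.22, with 9 cells that held both against 18.3, and the 2 libraries gave -0.25 and -0.19. Junb followed the sum of the other 8 genes closest, with a median r of 0.25 over the groups.

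**Figure D5:**
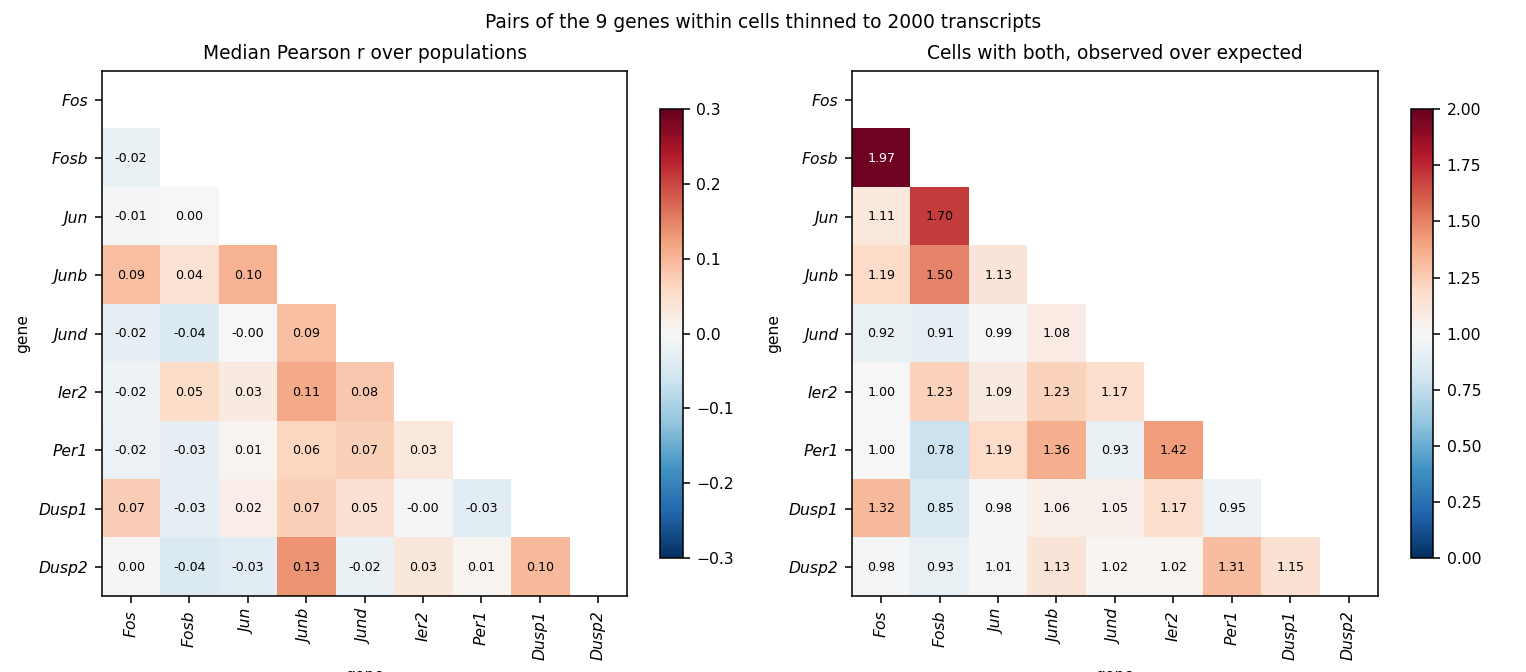
Left, the median over the 10 groups of Pearson's r between thinned counts of 2 genes in single cells; right, cells with both genes as a ratio to the number their separate shares give. Medians are at most 0.13 (Junb with Dusp2), and Fos with Fosb has a ratio of 1.97 on 18 cells.

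Over the 28 combinations of library and population the 9 genes followed each other more closely, but those points share mice, libraries and depth. Junb had r of 0.89 with the sum of the other 8 genes, Ier2 0.85 and Dusp2 0.83, while Fosb had 0.59 and Per1 0.54. Of 5862 other genes the 5 most like the members' sum across the 28 combinations were Ski at 0.93, Shisa5 at 0.93, Rgs2 at 0.93, Gramd1a at 0.91 and Zbtb7a at 0.91. Among the 678 single cells of TBGR the 5 most like it, by the mean r over the 4 populations, were Noct at 0.23, Malat1 at 0.20, Ppp1r18 at 0.20, Nfkbia at 0.19 and Ppp1r15a at 0.18. For Noct the 4 populations gave 0.40, 0.22, 0.07 and 0.23. None of the 5 genes appears in both lists.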

How the data were processed

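Single-cell CEL-Seq2 libraries were mapped by the authors with bwa to mouse gene models of GENCODE VM9 in which isoforms and overlapping loci were merged, and reads with several hits were discarded (BWA 0.6.2-r126 and bcl2fastq 2.17.1.14 in the submitters' processing notes). The deposited values are estimated counts of transcripts per gene and cell, which the authors derived from 6-base molecular identifiers by a binomial correction. They were rounded to whole transcripts here. Cells named in the barcode sheets with at least 2000 transcripts, without mt- and ERCC- genes, were kept. None exceeded the study's limit of 2% Kcnq1ot1, and doublets were not called. Transcripts were summed per library and population and given per 1e+06 (CPM), and 0.5 transcripts were added before log2 ratios. Totals per library and population were 94268 to 775264 transcripts. The 13 comparisons used no test, since each genotype is treated as 1 mouse. The rule for calls and the alternative settings were applied to all genes. From each list at most 4 called genes per comparison were named, by size of the log2 ratio. Likeness used genes with at least 200 transcripts. The members and gene lists were chosen with earlier results of these data known. Scripts were tested on simulated data (Python 3.11.15, numpy 2.4.6, pandas 2.3.3, scipy 1.17.1, matplotlib 3.10.9).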

Additional observations from a re-analysis of the deposited data

Results flagged for a closer look

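Of 36 sets of 4 libraries examined for a library far from the others, 3 held one. No chance rate is given for this, because zeros and small counts can leave such gaps by counting error. Fosb was at 22.2 CPM in the CD122- cells of fl/fl library 3 and at 0 in the other 3, and at 0 CPM in the CD122+ cells of fl/fl library 2, whose other libraries had 9.02 to 10.6 CPM. Per1 was at 14.5 CPM in the CD122- cells of fl/fl library 1 and at 4.45 to 6.10 CPM in the other 3. All 3 rest on a few transcripts.

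Dusp1 went opposite ways between CD122- and CD122+ cells in 2 mice. Its log2 ratio was 0.85 in D/DCd4 and -0.53 in TBGR, with libraries that did not overlap in either mouse, and the difference was not tested.

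Barcodes to which no cell was assigned held 88 transcripts of the 9 genes, 0 to 21 per library and over 3 in 12 libraries, and the second TBGR T-bet high library held the most.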

How the results depend on the processing

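No test was made, so none was paired, and the rule for calls did not use the sharing of libraries by populations. The fl/fl libraries held 2 populations each, and their ratios within libraries stand beside the comparisons as values. The settings with marked cells left out and the TBGR over fl/fl comparisons were chosen after seeing the data. Below, the first count is that of the members called as reported, and ranges with single libraries left out follow in brackets. TBGR CD122+ over CD122- had 1, and 0 when centred on the median gene, with TMM factors, with thinned cells, with cells of at least 3000 transcripts and without B cell or double positive marked cells, and 4 at a fold of 1.5 (1 to 2). TBGR T-bet int over CD122+ had 2, 1 thinned and 4 at a fold of 1.5 (1 to 2). TBGR T-bet high over T-bet int had 4, 3 thinned and 5 when centred and at a fold of 1.5 (3 to 4). In fl/fl, CD122+ over CD122- had 2, 0 with the mean CPM of single cells and thinned, and 3 without B cell marked cells (2 to 4), T-bet int over CD122+ had 0 in every setting (0 to 0), and T-bet high over T-bet int had 2, 1 with the mean CPM and 0 thinned (1 to 2). D/DCd4 CD122+ over CD122- had 6, 5 with the mean CPM, thinned and without double positive marked cells, and 7 with no minimum and at a fold of 1.5 (6 to 6). D/DCd4 over fl/fl in CD122- had 2, 0 when centred, with TMM factors, thinned and from 3000 transcripts, 3 with the mean CPM, at a fold of 1.5 and without double positive marked cells, and 4 without B cell marked cells (0 to 3). In CD122+ it had 4, 3 with TMM factors and thinned, and 5 at a fold of 1.5 (3 to 4). TBGR over fl/fl in CD122- had 7, and 6 when centred and thinned (6 to 8). In CD122+ it had 6, 5 when centred and 4 thinned (6 to 6). In T-bet int it had 3, 2 when centred, with TMM factors and without B cell marked cells, 1 thinned and 4 at a fold of 1.5 (2 to 4), and in T-bet high 5, 3 when centred and with TMM factors, 4 with the mean CPM and thinned, and 6 with no minimum and at a fold of 1.5 (3 to 6). Thinning leaves fewer transcripts under the same minimum of 20. For other moves the cause was not tested. Per1 in T-bet high cells of TBGR over fl/fl was the one ratio to change sign, from 1.41 to -0.39 when cells were thinned. Of all other log2 ratios under alternatives, 1714 moved by less than the spread between libraries and 67 by more.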
